A study of Mus musculus with 24 samples.

Results

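The 8 genes described here handle zinc and bind metal ions in the mouse: the metallothioneins Mt1, Mt2, Mt3 and Mt4, the transcription factor Mtf1, the zinc exporter Slc30a1 and the zinc importers Slc39a10 and Slc39a14. They were taken by gene symbol from the 52976 symbols of the count files, and all 8 were found there. The study treated wounds of diabetic mice, and RAW264.7 cells (a mouse macrophage cell line) with a peptide hydrogel that carries silver nanoclusters (AgNCs) and a hydrogenase. Messenger RNA was sequenced from 24 libraries in 8 groups of 3. The wound groups were diabetic control wounds, titled Dia, and wounds given the Fmoc-KYF-AgNCs-3S1C-Hyd2 hydrogel, titled TEOA, each at days 1, 7 and 14. The cell groups were titled Without_H2, whose treatment label is LPS (lipopolysaccharide, a bacterial activator of macrophages), and H2, whose label names the hydrogel with the endings Hyd3, Hyd4 and Hyd5 in its 3 libraries. Whether these endings mark different gels is not stated, so the 3 libraries may not be replicates of a single treatment. The label of the H2 cells is silent on LPS, whereas the design text puts LPS in both arms, so a difference between the cell groups cannot be told apart from a difference in LPS. No group had the gel without silver, or silver alone. In wounds and cells alike, silver therefore cannot be told apart from the rest of the gel. Strain, age and the way diabetes was produced are not given in the sources used here. No source says whether replicates are separate animals or cultures, so p-values rest on the spread among these libraries alone, and that spread may be technical.

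Metallothioneins are small, cysteine-rich proteins that hold zinc and copper and bind silver and cadmium tightly. MTF1 is activated by zinc and switches on metallothionein genes and Slc30a1 through metal response elements in their promoters. Other metals, silver among them, can raise free zinc by displacing it from proteins, and glucocorticoids and interleukin-6 signalling also induce Mt1 and Mt2. SLC30 (ZnT) proteins move zinc out of the cytosol, and SLC39 (ZIP) proteins move it in. SLC30A1 sits in the plasma membrane, SLC39A10 and SLC39A14 import zinc across it, and SLC39A14 is known as an acute-phase gene that also carries iron and manganese.

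Promoter sequence is printed for Mt1 and Slc30a1, known targets of MTF1 that were picked because both rose in the cells. The part of MTF1 in these rises was not tested. The core of the metal response element was searched on both strands as TGCACNC or TGCGCNC, and it occurs at least once in 21.4% of the 32851 RefSeq promoter windows of 250 bases (assembly GRCm38.p6). Of the 8 genes, 7 had a RefSeq window. The core was found in the windows of Mt1 (1 match), Mt2 (3), Mt4 (1) and Slc30a1 (1), and no match was found in the windows of Mt3, Mtf1 and Slc39a10. The upstream window of Slc30a1, at chr1:191906531-191906780 on the plus strand, is printed with its core in capitals, which lies on the opposite strand.
Slc30a1: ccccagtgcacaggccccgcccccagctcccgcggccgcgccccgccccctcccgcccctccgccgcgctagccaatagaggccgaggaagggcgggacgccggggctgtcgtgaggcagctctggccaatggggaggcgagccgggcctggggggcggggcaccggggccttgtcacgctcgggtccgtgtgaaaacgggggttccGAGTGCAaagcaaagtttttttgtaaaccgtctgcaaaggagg

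Mt1 and Mt2 have several annotated starts. In the 250 bases before the last annotated start of the first exon, Mt1 held 5 cores and Mt2 held 4. This second window was chosen after the sequences had been seen. The last starts lie 152 (Mt1) and 242 (Mt2) bases after the RefSeq starts. Of all RefSeq windows 0.304% held at least 4 cores, but those lie before the RefSeq start, so the share is not a like comparison. The 5 Mt1 cores begin 175, 150, 132, 68 and 54 bases before that start, and each is printed in capitals with 8 bases on either side, in the order of the chromosome and on the plus strand. The 4th lies on the opposite strand. A match is a description of letters and not a shown binding site.
Mt1 core 1, chr8:94179058-94179080: tcccgctgTGCACACtggcgctc
Mt1 core 2, chr8:94179083-94179105: gggagctcTGCACTCcgcccgaa
Mt1 core 3, chr8:94179101-94179123: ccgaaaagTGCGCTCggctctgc
Mt1 core 4, chr8:94179165-94179187: cgcctgctGGGTGCAaacccttt
Mt1 core 5, chr8:94179179-94179201: aaacccttTGCGCCCggactcgt

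The 4 metallothionein genes lie side by side on the plus strand of chromosome 8 (GRCm38), from Mt4 (94137197 to 94139031) through Mt3 (94152607 to 94154146) and Mt2 (94172664 to 94173568) to Mt1 (94179082 to 94180327). Mtf1 lies on chromosome 4 (124802104 to 124849800), Slc30a1 and Slc39a10 on chromosome 1 (191906767 to 191913247 and 46807544 to 46892852) and Slc39a14 on chromosome 14 (70303469 to 70351425). The values were made by counting read pairs over exons without use of strand, and pairs that fell on more than 1 gene were not counted. Of the 588 exonic bases of Mt2, 432 lie under an exon of Gm45774, an antisense gene, and 156 bases (26.5%) remained from which a pair could be counted for Mt2 alone. Mt2 was counted at 0.686 to 2.57 pairs per 100 pairs of Mt1 in the wounds and 0.963 to 3 in the cells. The level of Mt2 is therefore not comparable with that of the other genes, and pairs from Mt2 and Gm45774 cannot be told apart over the shared bases. For Mtf1 and Slc30a1 the bases left by an overlapping antisense gene were 91.3% and 91.1%, and for the other 5 genes 100%.

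**Figure D1:**
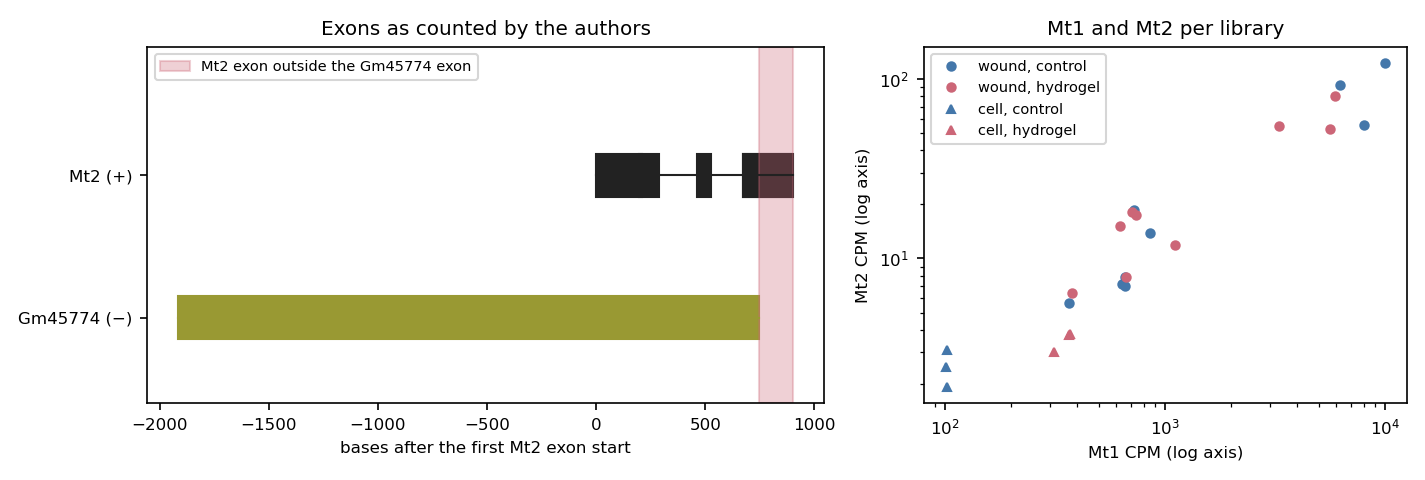
Left, exons of Mt2 and of the antisense gene Gm45774 in bases from the first Mt2 start, with the shaded stretch lying outside the Gm45774 exon. Right, CPM (counts scaled to library size) of Mt2 against Mt1 in each of the 24 libraries on log axes; the 6 libraries of day 1 lie at the upper right, and the cells at the lower left.

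Libraries held 12.4 M to 27.1 M counted pairs in wounds and 17.9 M to 24 M in cells. Levels are in CPM, counts scaled to library size with TMM factors, and differences are log2 fold changes with a standard error from the edgeR quasi-likelihood test, called when the Benjamini-Hochberg adjusted p over all tested genes was below 0.05. In the wounds, replicate 1 of the day 1 controls, of the day 14 controls and of the day 1 hydrogel group stood apart from their groups, and values without them are given beside several of the results they touch. The 3 control cell libraries differed by little more than counting noise (mean chi-square per gene 1.49 to 1.77 between pairs, where sampling alone gives 1), against 9.94 to 33.1 between hydrogel cell libraries. Of the day 7 control wounds, replicates 2 and 3 were also close (2.7), while replicate 1 differed more from them (23.2 and 16.2). Of 12 macrophage markers, 11 were detected in the control cells (C1qb stood at 0) and all 12 in the hydrogel cells. Their summed level was 6951 to 7074 CPM in control and 10219 to 10754 CPM in hydrogel cells, while 12 keratinocyte markers summed to 1.83 to 3.30 CPM, with Krt5 and Krt14 at 0 in both groups.

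In RAW264.7 cells the hydrogel group had more Mt1 and Slc30a1 and less Slc39a10 and Slc39a14 than the controls. Of the 6 members tested there, 3 rose (Mt1, Mt2 and Slc30a1), 2 fell (Slc39a10 and Slc39a14) and Mtf1 did not pass. Of all 12972 genes tested 72.5% passed, 34.7% higher and 37.8% lower, so passing the test does not set the members apart. For 4 members (Mt1, Slc30a1, Slc39a10 and Slc39a14) the groups did not overlap, as for 75.9% of genes. The median log2 fold change was 0.23 over the 6 members and -0.04 over all genes tested. The sizes of 3 changes were in the tails: 0.54% of genes rose as much as Mt1, 0.948% as much as Slc30a1, and 1.72% fell as much as Slc39a10. For Slc39a14 the same share was 31.6% and for Mt2 24.7%.

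Mt1 stood at 102, 103 and 101 CPM in the control cells and at 372, 367 and 314 CPM in the hydrogel cells. All hydrogel libraries were above all controls, and the rise was 3.44-fold (log2 1.78 ± 0.07 SE, n = 3 per group, edgeR adjusted p = 3.82e-08). Mt1 took 0.0102% to 0.0104% of all counts in control and 0.0312% to 0.037% in hydrogel cells. Mt2 stood at 1.92, 3.09 and 2.48 CPM in controls and 3.81, 3.75 and 3.03 CPM with hydrogel, from 46 to 85 pairs per library. The Mt2 groups overlapped, and its log2 change of 0.50 ± 0.19 (edgeR adjusted p = 0.0317) was lost when hydrogel replicate 2, control replicate 1 or control replicate 3 was left out (edgeR adjusted p = 0.0953, 0.134 and 0.0799) and when the control libraries were summed into 1 (edgeR adjusted p = 0.0817). Gm45774 was counted with 3 to 13 pairs per cell library.

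Mt3, a form best known from the nervous system, had 1 pair over the 3 control cell libraries and 4 over the hydrogel libraries, and was not tested. Mt4, the form of stratified squamous epithelium, had 0 pairs in all 6 cell libraries, which allows up to 0.0438 CPM over the control group and 0.0466 CPM over the hydrogel group, for counting error only.

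Mtf1 itself stood at 50.6, 49.8 and 47.2 CPM in control cells and 44.7, 46.0 and 51.8 CPM in hydrogel cells. The groups overlapped, and the log2 difference of -0.05 ± 0.07 (edgeR adjusted p = 0.558) had an interval of 2 SE from -0.20 to 0.10.

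Among the transporters, the exporter Slc30a1 stood at 6.81, 6.90 and 7.39 CPM in control cells and 18.6, 22.9 and 23.5 CPM in hydrogel cells. Its groups did not overlap, and it rose 3.09-fold (log2 1.63 ± 0.11 SE, edgeR adjusted p = 4.35e-07). The importer Slc39a10 ran the other way, at 138, 141 and 135 CPM in controls and 39.3, 32.7 and 36.3 CPM with hydrogel. It was 3.82-fold lower with hydrogel (log2 -1.93 ± 0.07 SE, edgeR adjusted p = 3.06e-08). Slc39a14 was at 130, 126 and 124 CPM in controls and 90.2, 93.9 and 95.5 CPM with hydrogel, a log2 difference of -0.44 ± 0.06 (edgeR adjusted p = 4.62e-05) with no overlap.

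**Figure D2:**
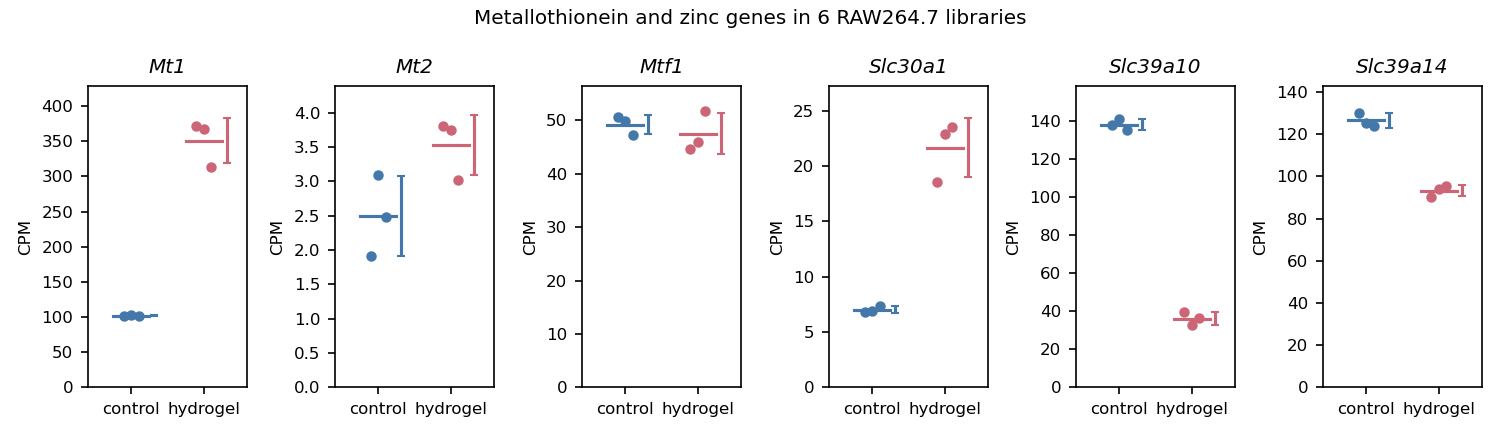
CPM of 6 genes in the 6 RAW264.7 libraries; points are libraries, horizontal lines group means and error bars 1 SD (n = 3). Mt1 and Slc30a1 lie higher and Slc39a10 and Slc39a14 lower in every hydrogel library, while Mt2 and Mtf1 overlap.

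Levels between genes were set side by side per exon length. In control cells Mt1 had a mean of 81.8 FPKM (read pairs scaled to exon length and library size), followed by Slc39a10 at 25, Slc39a14 at 12.2, Mtf1 at 5.93 and Slc30a1 at 1.34 FPKM. In hydrogel cells Mt1 had 282 FPKM, Slc39a14 8.96, Slc39a10 6.54, Mtf1 5.72 and Slc30a1 4.13 FPKM, so Slc39a10 moved below Slc39a14. Mt2 is left out of this order because of its shared bases. The counted exons of Mt1 leave no gap over its span of 1246 bases, so introns of spliced forms count as length and lower its FPKM.

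The rest of the transporter families in the cells did not move in 1 direction, and 72.5% of all genes tested there passed. Of 10 zinc exporters 6 were tested, 2 rose and 4 fell (median log2 -0.50): with Slc30a1 rose Slc30a6 (0.34 ± 0.07), which serves the secretory pathway, and Slc30a4 (-1.37 ± 0.08), Slc30a9 (-0.90 ± 0.08) and Slc30a7 (-0.75 ± 0.10) fell. Of 14 zinc importers 12 were tested, 5 rose and 4 fell (median 0.01). Slc39a3 (0.79 ± 0.10), Slc39a11 (0.48 ± 0.08) and Slc39a1 (0.46 ± 0.08) rose, all in edgeR's quasi-likelihood test. Copper genes bear on silver because the copper importer Slc31a1 (CTR1) also takes up silver. Of 15 copper genes 11 were tested, and 5 rose and 6 fell (median -0.31). Slc31a1 fell from a mean of 121 to 84.1 CPM (-0.53 ± 0.10), the copper pump Atp7a fell from 142 to 44.4 CPM (-1.68 ± 0.07) and the ferroxidase Cp fell from 32.2 to 7.35 CPM (-2.13 ± 0.09), while Steap3, a metalloreductase, rose from 3.09 to 7.83 CPM (1.33 ± 0.11).

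Of the other stress genes that metals can induce, Hmox1, which encodes haem oxygenase 1, rose from a mean of 1573 to 2036 CPM (log2 0.37 ± 0.06, edgeR adjusted p = 2.25e-04), and Hspa1b, an inducible HSP70 gene, rose from 4.89 to 6.14 CPM (0.34 ± 0.13, edgeR adjusted p = 0.0358). Of 12 oxidant response genes under NRF2, 11 were tested, 6 rose and 2 fell (median 0.23), and of 14 heat shock genes 12 were tested, 5 rose and 5 fell (median 0.04). Of 12 glucocorticoid response genes 9 were tested, 3 rose and 4 fell, and of 12 IL-6 and STAT3 response genes 11 were tested, 2 rose and 4 fell. Beside these lists, 72.5% of all genes tested in the cells passed, 34.7% higher and 37.8% lower, so such counts do not set the lists apart.

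In the wounds Mt1, Mt2 and Slc39a14 were highest on day 1 in both arms and lower on days 7 and 14. In bulk tissue, fewer cells of a type and less RNA per cell cannot be told apart. Within the control wounds 5 of 8 members passed between day 7 and day 1, all lower, where 31.6% of 17592 genes passed and 16.6% were lower. Between day 14 and day 1 in controls 5 passed, 4 lower and 1 higher, where 32.4% of genes passed, 15.7% lower and 16.7% higher. Within the hydrogel wounds 5 members fell by day 7, where 18.3% of genes passed and 10.5% fell. All 8 passed there by day 14, 5 lower and 3 higher, where 47.8% of genes passed, 26.1% lower and 21.8% higher. Of these, Mtf1 passed narrowly and with overlap (log2 -0.73 ± 0.29, edgeR adjusted p = 0.0478), and it lost the call in 10 of 15 alternatives. The median log2 change from day 1 to day 7 was -1.86 for the members against -0.05 for all genes in control wounds, and -2.33 against -0.11 in hydrogel wounds.

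Mt1 stood at 8057, 9996 and 6255 CPM in the day 1 controls, where it took 0.509% to 0.741% of all counts. It stood at 661, 641 and 656 CPM on day 7 and 858, 365 and 723 CPM on day 14. Days 7 and 14 did not overlap with day 1 in controls (49.8% and 29.6% of genes did not), and Mt1 fell 12.4-fold by day 7 (log2 -3.63 ± 0.43 SE, edgeR adjusted p = 1.19e-04) and 12.5-fold by day 14 (-3.64 ± 0.43, edgeR adjusted p = 6.04e-05). In the hydrogel wounds Mt1 stood at 5601, 5915 and 3302 CPM on day 1, 668, 379 and 1109 CPM on day 7 and 626, 709 and 740 CPM on day 14. Again neither later day overlapped with day 1 (40.3% and 59.3% of genes did not). It fell 6.87-fold by day 7 (-2.78 ± 0.42, edgeR adjusted p = 0.00159) and 7.14-fold by day 14 (-2.84 ± 0.42, edgeR adjusted p = 1.72e-04). From day 1 to day 7 in controls, 1.3% of genes fell as much as Mt1 did. With the 3 day 7 libraries of each arm summed into 1, the day 7 falls of Mt1 kept their size (log2 -3.60 and -2.80) and lost the call.

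**Figure D3:**
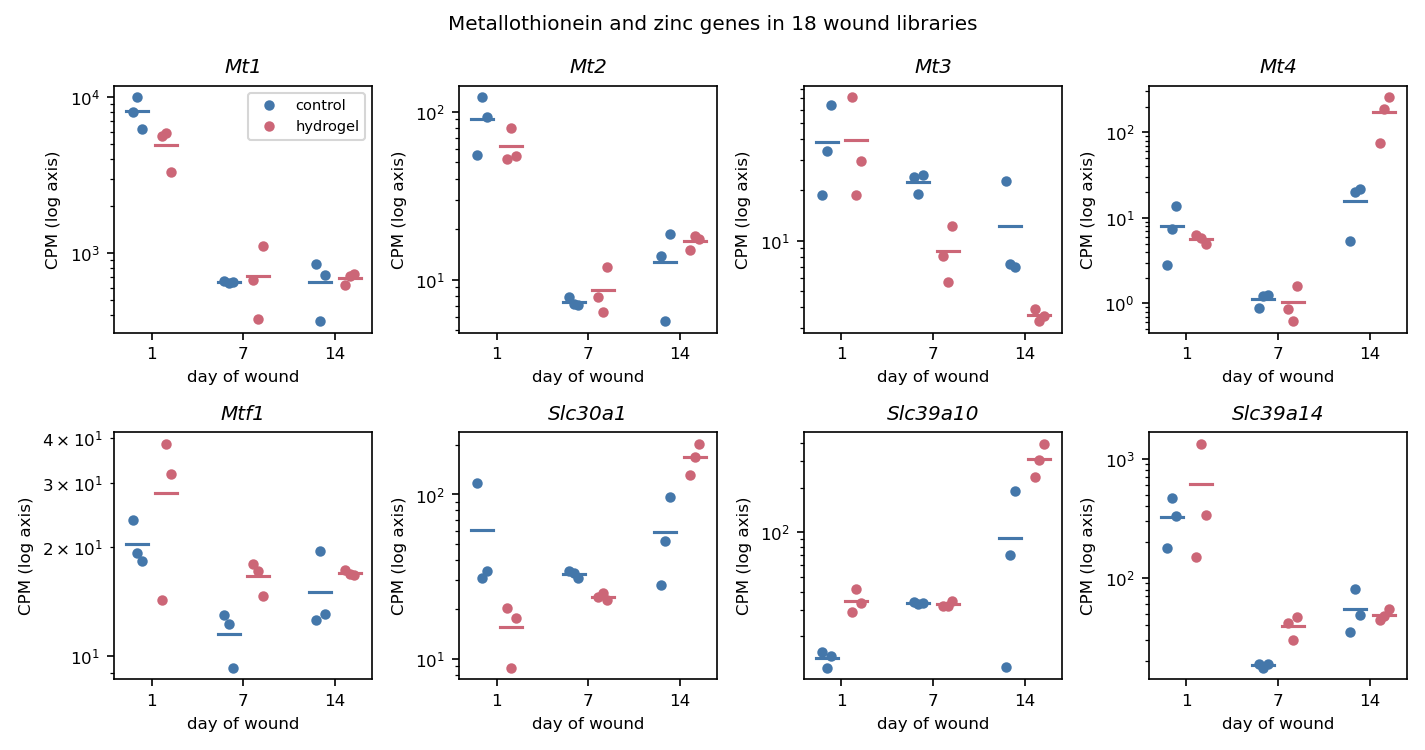
CPM of the 8 genes in the 18 wound libraries on log axes by day and arm; points are libraries and lines group means. Mt1, Mt2 and Slc39a14 lie highest on day 1 in both arms, and Mt4, Slc30a1 and Slc39a10 lie highest in the day 14 hydrogel wounds.

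Mt2 followed Mt1. It stood at 55.2, 122 and 92.6 CPM in day 1 controls and at 7.05 to 7.88 CPM on day 7, a fall of 3.61 ± 0.40 on the log2 scale (edgeR adjusted p = 8.08e-05). In hydrogel wounds it was 52.2 to 79.9 CPM on day 1 and 6.44 to 11.9 CPM on day 7 (-2.83 ± 0.39, edgeR adjusted p = 0.00109). Gm45774 moved as well, from 4.14 to 35.6 CPM in day 1 controls to 0.0698 to 0.474 CPM on day 7.

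Slc39a14, the acute-phase importer, stood at 178, 467 and 332 CPM in day 1 controls, 18.9, 17.6 and 19.1 CPM on day 7 and 35.1, 80.4 and 49.1 CPM on day 14. Its 17.6-fold fall by day 7 (log2 -4.14 ± 0.64 SE, edgeR adjusted p = 5.41e-04) was matched or exceeded downward by 0.864% of genes. In hydrogel wounds it stood at 150, 1339 and 340 CPM on day 1, the highest value in replicate 2, and at 42.0, 30.1 and 46.6 CPM on day 7 (-3.95 ± 0.63, edgeR adjusted p = 0.00219), a change of -2.63 without day 1 replicate 2. Mtf1 fell less, from 23.7, 19.3 and 18.2 CPM to 13.0, 12.3 and 9.29 CPM in controls (-0.82 ± 0.29, edgeR adjusted p = 0.0433), and that call was lost when any of these 6 libraries was left out.

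Genes of 3 response lists were counted over the same days, beside the shares of all genes given above. Of 12 glucocorticoid response genes 9 fell and 0 rose in control wounds by day 7 (median log2 -1.75), and 5 fell and 0 rose in hydrogel wounds. Of 12 IL-6 and STAT3 response genes 7 fell and 1 rose in controls (median -1.36), and 5 fell and 0 rose in hydrogel wounds. Of 12 NRF2 genes 9 fell in controls and 6 in hydrogel wounds. The cell markers moved too: skeletal muscle markers summed to 8536, 282390 and 166207 CPM in day 1 controls against 39001 to 39508 CPM on day 7, and fibroblast markers to 612 to 1470 CPM against 10528 to 10624 CPM. The part of these markers in the falls of Mt1, Mt2 and Slc39a14 was not tested. In the day 1 controls, replicate 1 had the lowest muscle sum and adipocyte markers at 77050 CPM against 6194 and 12760 CPM. Its Mt1 level lay between those of the other 2, and its Mt2 (55.2 CPM) and Slc39a14 (178 CPM) were the lowest of the 3.

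By day 14 other members had climbed above day 1. In hydrogel wounds Mt4 rose 30.6-fold from day 1 (log2 4.94 ± 0.65), Slc30a1 10.8-fold (3.44 ± 0.53) and Slc39a10 8.99-fold (3.17 ± 0.60), while Mt3 was 11.1-fold lower (-3.47 ± 0.59), all in edgeR's quasi-likelihood test with no overlap of libraries. Over all genes 59.3% had no overlap there. The size for Mt3 leaned on day 1 replicate 1 at 71.1 CPM: without it the change was -2.76, and without the 3 libraries that stood apart -2.75 (edgeR adjusted p = 2.45e-06). Their library values are given with the day 14 comparison. In control wounds Slc39a10 rose 6.37-fold (2.67 ± 0.59, edgeR adjusted p = 0.00381), though replicate 1 of day 14 lay within the day 1 range. Without day 14 replicate 3, the highest library, it was 1.54, and without the 3 libraries that stood apart 3.27 (edgeR adjusted p = 7.34e-06). Mt3 fell in controls (-1.67 ± 0.55, edgeR adjusted p = 0.0295), with overlap, and lost the call without day 1 replicate 2 or 3 or day 14 replicate 2 or 3 (edgeR adjusted p = 0.0538, 0.144, 0.106 and 0.105). It was -2.45 without day 14 replicate 1 and -2.78 without the 3 libraries that stood apart (edgeR adjusted p = 1.82e-05). Slc30a1 did not pass in controls (-0.05 ± 0.48, edgeR adjusted p = 0.95), and without the 3 libraries that stood apart it was 1.19 (edgeR adjusted p = 0.00409).

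At day 1, hydrogel against control wounds, only Slc30a1 passed among the 8 members, and it was lower (7.55% of 17592 genes passed, 3.02% lower). It stood at 117, 31.1 and 34.2 CPM in controls and 20.3, 8.78 and 17.8 CPM with hydrogel, with no overlap. The difference was 3.91-fold lower (log2 -1.97 ± 0.50 SE, edgeR adjusted p = 0.0293). Control replicate 1, which stood apart, was the high library: without it the difference was -1.07 (edgeR adjusted p = 0.0983). The call was also lost without hydrogel replicate 2 or 3 (edgeR adjusted p = 0.0966 and 0.081), and without the 3 libraries that stood apart it was -1.29 (edgeR adjusted p = 0.00538).

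Mt1 was lower in every hydrogel wound than in every control wound of day 1 (17.1% of genes had no overlap), but the difference did not pass: log2 -0.71 ± 0.39 (edgeR adjusted p = 0.263), with an interval of 2 SE from -1.50 to 0.07. Slc39a10 was higher in every hydrogel wound, 29.0, 41.6 and 33.5 CPM against 15.8, 12.3 and 14.8 CPM, and did not pass either (1.28 ± 0.57, edgeR adjusted p = 0.168). Without the 3 libraries that stood apart 4 members passed: Slc30a1 and Mt3 lower, and Mtf1 (0.91, edgeR adjusted p = 0.0033) and Slc39a10 (1.47, edgeR adjusted p = 0.00505) higher. The direction of Mt3 depended on them, at 0.03 with all libraries and -1.01 without (edgeR adjusted p = 0.0255).

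At day 7 no member passed, where 21.6% of genes did, and 1 of the 8, Mt3, had an unadjusted p below 0.05 in edgeR. Mt3 stood at 23.9, 18.8 and 24.5 CPM in controls and 8.11, 5.66 and 12.2 CPM with hydrogel (log2 -1.38 ± 0.55, edgeR adjusted p = 0.0823). Slc39a14 stood at 42.0, 30.1 and 46.6 CPM with hydrogel against 17.6 to 19.1 CPM (1.10 ± 0.57, edgeR adjusted p = 0.18). Mt3, Mtf1, Slc30a1 and Slc39a14 did not overlap between arms (70.2% of genes did not), and these 4 passed when only the 6 day 7 libraries were in the model or with limma-voom and quality weights, while DESeq2 gave 0. Mt1 overlapped, at 379 to 1109 CPM with hydrogel against 641 to 661 CPM (0.14 ± 0.39, edgeR adjusted p = 0.825), with an interval of 2 SE from -0.64 to 0.92. Without the 3 libraries that stood apart, which are of other days, Mt3 (-1.38, edgeR adjusted p = 8.67e-04), Mtf1 (0.52, edgeR adjusted p = 0.0191) and Slc39a14 (1.09, edgeR adjusted p = 0.0243) passed.

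Cell markers differed between the arms on day 7. Of 12 keratinocyte markers 10 rose with hydrogel, and their sum was 892 to 898 CPM in controls and 8924 to 9238 CPM with hydrogel. Of 12 macrophage markers 11 fell, with sums of 3297 to 3327 against 452 to 560 CPM, and all 10 fibroblast markers fell, with sums of 10528 to 10624 against 1491 to 1738 CPM. Of 10 adipocyte markers 8 fell, with sums of 39556 to 40170 against 1687 to 1744 CPM. The part of these cell types in the day 7 values of the members, transporters and stress genes was not tested.

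At day 14 the hydrogel wounds had more Mt4, Slc30a1 and Slc39a10 and less Mt3 than the controls. These 4 of 8 members passed, 3 higher and 1 lower (16.1% of genes passed, 5.83% higher and 10.3% lower). The median was 0.29 over members and 0.03 over all genes. Mt4 stood at 5.40, 19.8 and 22.0 CPM in controls and 75.0, 189 and 257 CPM with hydrogel. The groups did not overlap, and Mt4 rose 11.0-fold (log2 3.46 ± 0.60 SE, edgeR adjusted p = 0.00274), as much as 0.296% of genes. Per length, Mt4 reached a mean of 436 FPKM beside 555 FPKM for Mt1 in those wounds, against 39.5 and 521 FPKM in day 14 controls. The Mt1 length of 1246 bases includes introns, against 398 bases for Mt4, so the FPKM of Mt1 is lowered beside that of Mt4. Mean CPM was 174 for Mt4 and 692 for Mt1 with hydrogel, and 15.7 and 649 in controls. Mt4 kept the call without any 1 library and in every alternative but that with only the 6 day 14 libraries in the model (3.42, edgeR adjusted p = 0.0539).

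Slc30a1 stood at 28.1, 51.7 and 96.9 CPM in day 14 controls and 132, 170 and 204 CPM with hydrogel, a 2.86-fold rise (log2 1.52 ± 0.49 SE, edgeR adjusted p = 0.0454). Slc39a10 stood at 12.5, 70.3 and 191 CPM in controls and 235, 307 and 395 CPM with hydrogel, a 3.43-fold rise (1.78 ± 0.57, edgeR adjusted p = 0.0447). With 1 library left out, its log2 change ran from 1.26 to 2.91, the highest without control replicate 3. Without the 3 libraries that stood apart it was 1.26 (edgeR adjusted p = 0.0085). Mt3 stood at 22.5, 7.28 and 6.92 CPM in controls and 3.91, 3.31 and 3.56 CPM with hydrogel, 3.40-fold lower (-1.76 ± 0.56, edgeR adjusted p = 0.0421). For each of these 3 genes, as for Mt4, the arms did not overlap (43.7% of genes did not). Without control replicate 1, which stood apart, Slc30a1 was 1.18 (edgeR adjusted p = 0.178) and Mt3 -0.98 (edgeR adjusted p = 0.285). With all 3 libraries that stood apart left out, both passed, Slc30a1 at 1.18 (edgeR adjusted p = 0.0063) and Mt3 at -0.99 (edgeR adjusted p = 0.031). Without control replicate 2 or any 1 hydrogel library, Slc30a1 and Slc39a10 lost their calls too, and Mt3 lost its call without any 1 hydrogel library.

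Cell markers differed between the arms on day 14. Keratinocyte markers summed to 759, 4897 and 7051 CPM in controls and to 6502 to 7200 CPM with hydrogel, and 0 of the 12 passed the test. In the controls, replicate 1 had the lowest keratinocyte sum and also the lowest Mt4, Slc30a1 and Slc39a10. Macrophage markers summed to 5711, 2049 and 740 CPM in controls and 100.4 to 150 CPM with hydrogel, and all 12 fell. The part of these cell types in the member differences was not tested. Mt1 overlapped between the arms (0.09 ± 0.39, edgeR adjusted p = 0.893, interval of 2 SE from -0.69 to 0.87). Of 12 glucocorticoid response genes 7 fell and 0 rose (median -1.46), and of 12 IL-6 and STAT3 response genes 7 fell and 0 rose (median -1.15). Of all genes 10.3% fell.

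**Figure D4:**
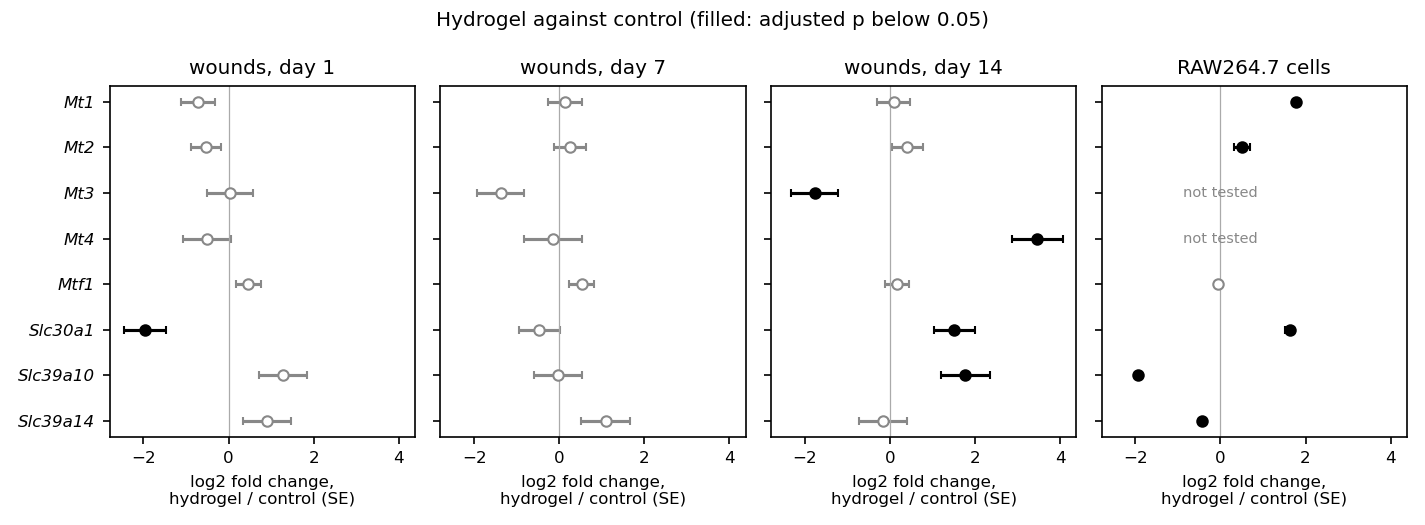
Log2 fold change of hydrogel against control with 1 SE for each gene in the wounds of each day and in RAW264.7 cells; filled points have an adjusted p below 0.05 in edgeR's quasi-likelihood test. Slc30a1 lies below 0 at day 1 and above 0 at day 14 and in cells, and Mt1 is past the threshold only in cells.

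The change of the hydrogel difference between days was tested directly. Mt4 (edgeR adjusted p = 0.00863) and Slc30a1 (edgeR adjusted p = 0.0113) passed, 2 of 8 members where 15.8% of genes did. For Slc30a1 the 3 log2 differences were -1.97, -0.46 and 1.52 on days 1, 7 and 14, and for Mt4 -0.50, -0.14 and 3.46. Slc39a10 did not pass (edgeR adjusted p = 0.219) nor did Mt3 (edgeR adjusted p = 0.191). Over the mean of the 3 days, 31.8% of genes passed, 15.6% higher and 16.2% lower, and of the members Slc39a10 rose (1.01 ± 0.32, edgeR adjusted p = 0.0285) and Mt3 fell (-1.04 ± 0.31, edgeR adjusted p = 0.0219). Mt1 was at -0.16 ± 0.23 (edgeR adjusted p = 0.605, interval of 2 SE from -0.61 to 0.29). Wounds and cells were fitted separately, and the rise of Mt1 in cells against its values in wounds was not tested as a difference.

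Among the other wound transporters, 2 of 7 zinc exporters fell at day 1 (Slc30a1 and Slc30a5, -0.58 ± 0.17), Slc30a2 rose at day 7 (2.92 ± 0.73) and Slc30a4 fell at day 14 (-0.89 ± 0.20), each in edgeR's quasi-likelihood test. Of 13 importers, Slc39a6 fell at day 1 (-0.76 ± 0.20) and rose at day 14 (1.18 ± 0.20). Slc39a11 rose at day 7 (2.39 ± 0.46), and Slc39a13, a Golgi importer, fell at day 14 (-0.90 ± 0.16). Medians at day 14 were -0.15 for exporters and 0.28 for importers. Of all genes 7.55%, 21.6% and 16.1% passed on days 1, 7 and 14.

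Of 14 copper genes tested in wounds, 1 rose at day 1 (Steap3, 1.85 ± 0.42). At day 7, 1 rose (Slc31a1, 0.52 ± 0.18) and 1 fell (Cp, -2.56 ± 0.60). At day 14, 1 rose and 3 fell: Slc31a1 rose from a mean of 55.2 to 84.5 CPM (0.61 ± 0.18), Cp fell from 32.8 to 4.05 CPM (-3.02 ± 0.62), Steap3 fell from 57.2 to 15.3 CPM (-1.90 ± 0.42) and Slc31a2 fell (-1.06 ± 0.26). Atp7a did not pass on any single day. The shares of all genes that passed, 7.55%, 21.6% and 16.1% on days 1, 7 and 14, apply here too.

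**Figure D5:**
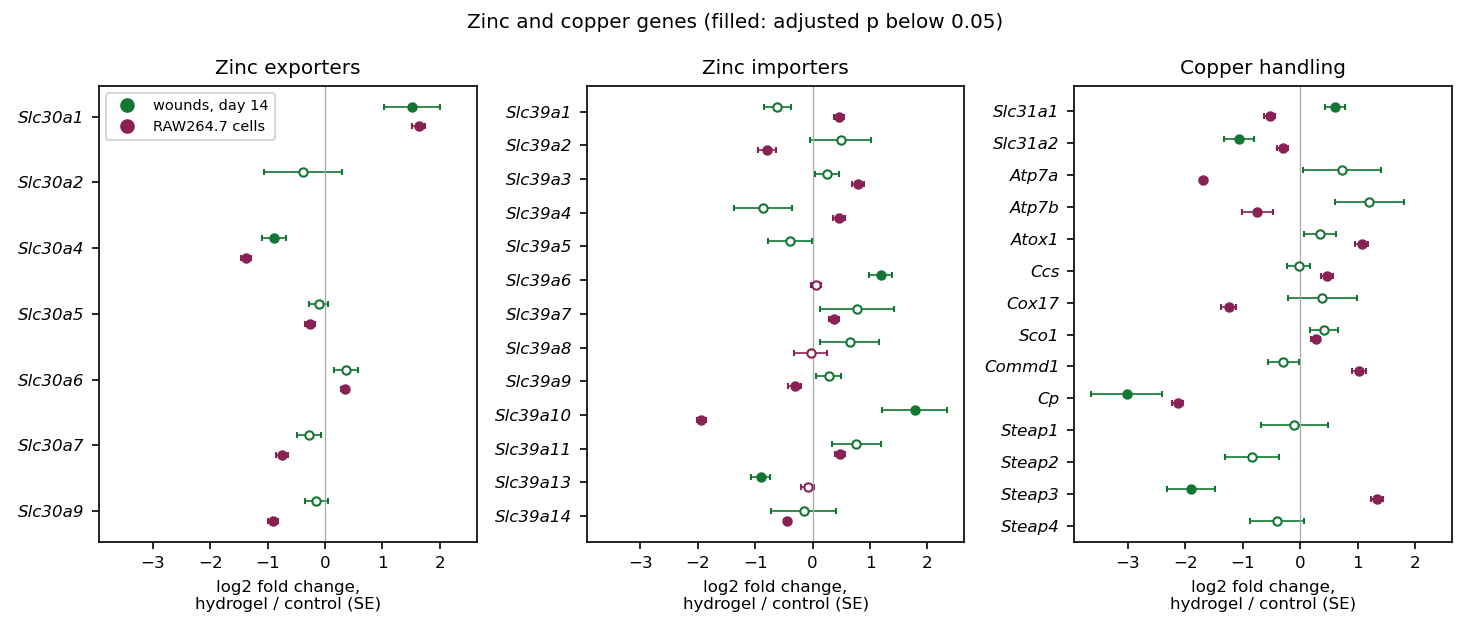
Log2 fold change of hydrogel against control with 1 SE for zinc exporters, zinc importers and copper genes in day 14 wounds and in RAW264.7 cells; filled points have an adjusted p below 0.05 in edgeR's quasi-likelihood test. Slc30a1 lies above 0 in both, and Slc39a10 above 0 in the wounds and below 0 in the cells.

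Of 14 heat shock genes, 3 rose and 0 fell in the day 7 hydrogel wounds, where 21.6% of all genes passed in either direction. Over the mean of the 3 days, 6 of the 14 rose and 0 fell, where 15.6% of all genes were higher and 16.2% lower. Hspa1a rose from a mean of 5.58 to 34.0 CPM (log2 2.61 ± 0.51, edgeR adjusted p = 0.00407) and Hspa1b from 13.6 to 74.2 CPM (2.45 ± 0.45, edgeR adjusted p = 0.0032). On day 1 a single heat shock gene rose (Hsph1, 1.33 ± 0.27), on day 14 the number was 2, and none of the 14 fell on any day. Hmox1 was lower with hydrogel at day 14, 14.1 against 124 CPM (-3.14 ± 0.52, edgeR adjusted p = 0.00228). Of 12 NRF2 genes 0 passed on day 1 or 7, and by day 14 the count was 1 higher and 2 lower. Of all genes 7.55% passed on day 1 and 16.1% on day 14.

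The genes whose log2 CPM over the 18 wound libraries was most like each member were sought among 11524 genes with a mean of at least 5 CPM. For Mt1 they were Ipo4 (Pearson r = 0.967), Get4 (0.961) and Acot9 (0.947), for Mt2 Nfkbib (0.956), Mt1 (0.947) and Zpr1 (0.946), and for Slc39a14 Zpr1 (0.975), Spcs3 (0.964) and Adrm1 (0.961). For Slc39a10 they were Nsd2 (0.980), Ccne2 (0.972) and Mcm4 (0.971), the last a subunit of the replicative helicase. For Slc30a1 they were Mphosph6 (0.958), Bambi (0.948) and Inip (0.940), and for Mtf1 Rxra (0.946), Aff4 (0.940) and Marchf6 (0.933). The libraries share days, arms and tissue makeup, so these values describe a shared course over 6 groups.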

How the data were processed

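For 24 mouse libraries the authors deposited raw counts of read pairs by gene symbol. The submitters' processing notes list Trim Galore 0.6.10, FastQC 0.11.9, HISAT2 2.2.1, SAMtools 1.9 and featureCounts 2.0.6. Exons were counted by gene name in GRCm38 without strand, per the file headers, and pairs on several genes or places were dropped.

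The 8 members and all lists were chosen with earlier results of these data known. Low genes were removed by edgeR 4.0.16 under R 4.3.3 (filterByExpr, at least 10 counts and 15 in total), leaving 17592 genes for wounds and 12972 for cells. With TMM scaling, a robust quasi-likelihood F test was run on the 18 wound libraries (6 group means, 12 residual degrees of freedom) and on the 6 cell libraries (4 degrees). P-values were adjusted by Benjamini-Hochberg over all genes, with a threshold of 0.05. The 10 comparisons were hydrogel against control in cells, at each day, over the mean of 3 days and between days, and days 7 and 14 against day 1 in each arm. The tests were tried on simulated counts.

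Named genes were all 8 members, up to 4 genes per list and comparison by adjusted p among those past the threshold, 5 fixed metal or stress genes, and the 3 most like genes per member. Alternatives were RLE scaling, no filter or 1 CPM in 3 libraries, DESeq2 1.42.0, voom of limma 3.58.1 with quality weights, a replicate block, models of the compared groups alone, day 7 libraries summed and each library left out. Leaving out 3 libraries together and summing the control cell libraries were chosen after seeing the data.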

Additional observations from a re-analysis of the deposited data

Results flagged for a closer look

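The difference between hydrogel and control wounds changed between days for 2 of the 8 members in the edgeR interaction test. Mt4 had an adjusted p of 0.00863, with log2 differences of -0.50 ± 0.57, -0.14 ± 0.69 and 3.46 ± 0.60 on days 1, 7 and 14. Slc30a1 had an adjusted p of 0.0113 in the same edgeR test, with -1.97 ± 0.50, -0.46 ± 0.48 and 1.52 ± 0.49. Slc30a1 was lower at day 1 in 3 of 3 hydrogel libraries than in any control, and at day 14 higher in 3 of 3. Of all genes 17.1% had no overlap at day 1 and 43.7% at day 14, in either direction. With the day 7 libraries summed, both lost the call (edgeR adjusted p = 0.115 for Mt4 and 0.143 for Slc30a1).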

How the results depend on the processing

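The 78 member results were recomputed in 1334 cases, of which 1203 kept direction and side of the threshold or stayed uncalled, 85 lost a call, 44 gained one and 2 reversed. The 2 reversals came with the 3 libraries that stood apart left out together: Mt3 at day 1 became -1.01 and Slc30a1 in controls from day 1 to day 14 became 1.19; the cause was not tested. The number of members called (1, 0, 4 and 2 for hydrogel at days 1, 7, 14 and their mean, 2 for the change between days) became 4, 4 and 5 with limma-voom at day 1, at day 7 and for the change between days; 0, 4 and 0 with only the compared groups at days 1, 7 and 14; and 4, 3 and 4 with the 3 libraries left out at day 1, at day 7 and for the change. Without a filter it was 1 at day 14 and 1 for the mean. With the day 7 libraries summed, which leaves fewer residual degrees of freedom, it was 0 at day 1, 1 at day 14, 0 for the mean, 0 for the change and 0 against 5 for day 7 over day 1 in each arm. Only the compared groups gave 0 against 5 for control day 14 over day 1. Leaving out 1 library gave 0 to 2 at day 1, 1 to 4 at day 14, 1 to 4 for the mean and 3 to 6 for hydrogel day 7 over day 1. In cells, Mt1, Slc30a1, Slc39a10 and Slc39a14 passed in all 13 alternatives; 4 or 5 members were called.

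Correlations between the deviations of same-numbered replicates of the 2 arms ran from -0.0185 to 0.374. In the wounds every control library matched its own number best, save replicate 3 of day 1 and replicate 2 of day 14. In the cells only replicate 2 did. The labels name no pairing, and whether same-numbered wounds share a batch was not tested. With replicate number as a block, 7 of 8 members in place of 8 passed in hydrogel wounds from day 1 to day 14 (Mtf1, edgeR adjusted p = 0.0568), 3 in place of 2 for the mean of 3 days (Mt4, edgeR adjusted p = 0.0105), and the other 8 comparisons kept their counts.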
